A study of Mus musculus with 6 samples.

Results

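Transcripts of 9 genes of phosphoinositide 3-kinase (PI3 kinase) signalling were described in mouse macrophages with and without SIRPa. They were the rows named Pik3ca, Pik3cb, Pik3cd, Pik3cg, Pik3r1, Pik3r5, Pik3ap1, Inpp5d and Akt1, 9 of the 54232 genes of the deposited table, found there by gene name. Messenger RNA was sequenced from bone marrow derived macrophages, cells cultured from marrow over 7 days with 30% medium conditioned by L929 cells, a source of colony-stimulating factor 1. There were 3 libraries from SIRPa KO cells and 3 from WT cells; all mice were C57BL/6 and 8 weeks old, and no library was treated. The labels name no promoter, Cre or exon of the KO allele and do not say whether the libraries of a group came from separate mice or cultures, so p-values here reflect library-to-library spread, possibly only technical.

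Class I PI3 kinases phosphorylate the membrane lipid PIP2 to PIP3, which recruits proteins with lipid-binding domains, among them the kinase AKT. The alpha, beta and delta catalytic subunits (Pik3ca, Pik3cb, Pik3cd) pair with regulatory subunits such as that of Pik3r1. Alpha and delta act mainly below tyrosine kinase pathways. The gamma subunit (Pik3cg) pairs with the product of Pik3r5 or Pik3r6 and acts mainly below G protein-coupled receptors. Alpha and beta are made in most tissues, and delta and gamma mainly in leukocytes. The phosphatase SHIP1 (Inpp5d) removes PIP3, and in macrophages the pathway serves survival, chemotaxis and phagocytosis.

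Values by library are given in the order of replicates 1, 2 and 3. Sirpa, the targeted gene, stood at 2101.8, 2112.1 and 2010.4 normalized counts in KO libraries, against 110498, 114095 and 94737 in WT libraries, so the libraries matched their labels. A normalized count is a gene's read count divided by 1 size factor per library. Assigned reads ran from 28653015 to 67446846 per library, with the most in WT replicate 3. The 7 macrophage markers were all present, with a summed level of 877004 to 1012701 in KO and 997197 to 1190708 in WT. Lyz2 alone gave 619319 to 951035 of each sum. No T or NK cell, erythroid or fibroblast marker passed the filter on low values described below. The 4 B cell markers summed to 53.0 to 68.7 in KO and 44.7 to 61.0 in WT, and the 5 neutrophil markers summed to 281 to 407 and 246 to 485, with Ly6g at 0. Dendritic cell markers summed to 137 to 155 in KO and 116 to 177 in WT, and mast cell and basophil markers to 53.8 to 108 and 58.9 to 89.1; the part of these cells in any result was not tested. In such bulk RNA, fewer cells of a type and less RNA per cell cannot be told apart.

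The stretch around the transcription start is shown for 4 of the genes, because they are the most abundant catalytic isoform (Pik3cg), the phosphatase among the 9 (Inpp5d), the most abundant gene of the 9 (Pik3ap1) and an isoform of most tissues (Pik3cb). Sequences run 5′ to 3′ on the gene's strand, 250 bases before to 50 after the start, from RefSeq on GRCm38.p6. They lie at chr12:32208610-32208909 (minus strand), chr1:87620062-87620361 (plus), chr19:41385053-41385352 (minus) and chr9:99140162-99140461 (minus), in that order. Capitals mark GAGGAA or its reverse complement, the core letters bound by PU.1, a transcription factor of myeloid cells.
Pik3cg: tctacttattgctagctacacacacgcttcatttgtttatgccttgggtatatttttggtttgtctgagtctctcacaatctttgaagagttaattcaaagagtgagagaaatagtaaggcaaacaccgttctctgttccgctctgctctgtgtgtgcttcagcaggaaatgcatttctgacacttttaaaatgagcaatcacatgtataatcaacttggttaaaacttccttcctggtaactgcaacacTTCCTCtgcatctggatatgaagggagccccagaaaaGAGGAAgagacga
Inpp5d: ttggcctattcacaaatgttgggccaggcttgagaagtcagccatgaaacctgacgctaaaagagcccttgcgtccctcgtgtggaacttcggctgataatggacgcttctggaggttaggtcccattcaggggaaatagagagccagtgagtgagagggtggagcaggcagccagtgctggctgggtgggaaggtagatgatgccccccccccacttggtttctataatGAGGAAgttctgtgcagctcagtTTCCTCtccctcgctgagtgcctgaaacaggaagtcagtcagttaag
Pik3ap1: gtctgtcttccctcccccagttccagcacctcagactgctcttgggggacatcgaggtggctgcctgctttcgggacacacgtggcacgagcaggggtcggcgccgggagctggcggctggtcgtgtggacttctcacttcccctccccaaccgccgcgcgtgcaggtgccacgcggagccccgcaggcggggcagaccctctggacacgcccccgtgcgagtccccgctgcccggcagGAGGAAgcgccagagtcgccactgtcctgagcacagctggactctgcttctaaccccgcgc
Pik3cb: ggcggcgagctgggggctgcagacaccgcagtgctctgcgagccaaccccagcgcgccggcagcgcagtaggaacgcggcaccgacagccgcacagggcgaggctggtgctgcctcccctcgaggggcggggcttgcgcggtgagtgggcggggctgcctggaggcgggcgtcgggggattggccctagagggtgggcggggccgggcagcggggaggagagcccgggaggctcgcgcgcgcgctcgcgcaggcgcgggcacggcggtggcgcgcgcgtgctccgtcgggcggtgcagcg
Counting the start as base 1, Pik3cg carried the letters in 2 places, with first bases at 1 and 38. Inpp5d also held them in 2 places, beginning 20 bases before the start and at base 4. Pik3ap1 held 1 match, 11 bases before the start. The 9 genes have 14 listed promoters, of which 4 (28.6%), from 3 genes, had a match on either strand, beside 28.3% of 32851 promoters of this length. The 2 listed promoters of Pik3cg overlap, so the same 2 matches count in both, lying 189 and 152 bases before the second start. The letters TTGCNNAA, bound by C/EBP factors, were in none of the 14, against 10.8% of all promoters, and TATAAA was in 1 promoter of Pik3r1, against 13.6%. The printed promoters held 44 CG pairs for Pik3cb, 26 for Pik3ap1, 6 for Inpp5d and 4 for Pik3cg, beside a median of 7 over all promoters. The 3 promoters of Pik3cd held 6, 26 and 4. These counts describe the letters of the windows, and binding was not measured.

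The gamma and delta transcripts were the most abundant of the 4 catalytic isoforms, in both genotypes. Levels between genes are given as normalized counts per kilobase of annotated exon (all exons of a gene merged, GENCODE M21). Pik3cg stood at 932 ± 106 normalized counts per kilobase, Pik3cd at 769 ± 79.0, Pik3cb at 468 ± 41.2 and Pik3ca at 350 ± 23.9 (SD, n = 6 libraries). Gamma thus made up 36.9% of the summed catalytic level, delta 30.6%, beta 18.6% and alpha 13.9%. The same order held in each of the 6 libraries.

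Each pair of isoforms was compared within libraries, where depth is shared. Pik3cg was 2.66-fold above Pik3ca, 1.99-fold above Pik3cb and 1.21-fold above Pik3cd, and Pik3cd was 1.64-fold above Pik3cb (geometric means over 6 libraries). Pik3cb was 1.34-fold above Pik3ca. All 6 pairs differed in 1 direction in 6 of 6 libraries, with p = 0.03125 each by a two-sided exact sign-flip permutation test over the libraries, the smallest p that 6 libraries allow, and an adjusted p of 0.03125 over the 6 pairs. Gamma and delta were nevertheless close, and their levels overlapped between libraries. The Pik3cg to Pik3cd ratio ran from 1.04 in WT replicate 3 to 1.43 in KO replicate 1. Reads were not placed along the genes, so the ratios rest on the length used, a choice that these p-values do not cover. With coding length alone the order stayed, but beta exceeded alpha only 1.06-fold and gamma exceeded delta 1.55-fold.

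**Figure D1:**
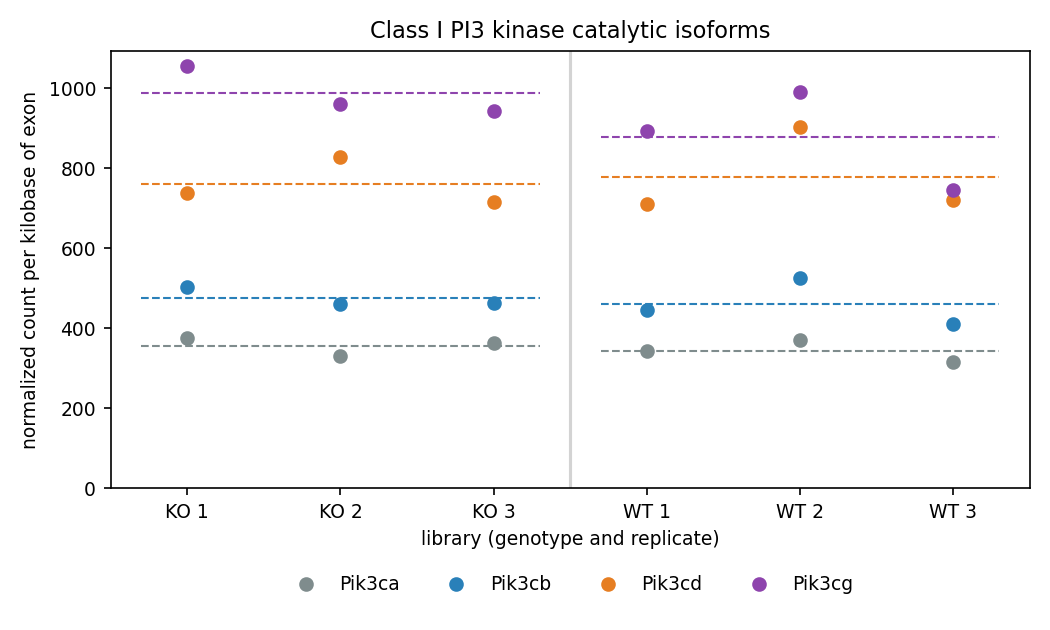
Normalized count per kilobase of exon (vertical axis) of the 4 catalytic isoforms in each library (horizontal axis); dashed lines are group means. Gamma lies on top in all 6 libraries, from 746 to 1057, and alpha at the bottom, from 316 to 375.

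The share of Pik3cg among the isoforms did not pass the test between genotypes. Its level was 1057, 961 and 944 per kilobase in KO, against 894, 991 and 746 in WT. WT replicate 2 lay among the KO libraries, so the groups overlapped. Gamma made up 38.2% ± 1.17 of the catalytic level in KO and 35.6% ± 1.67 in WT, and delta 29.5% ± 2.35 and 31.6% ± 1.68 (SD, n = 3 each). On the log2 scale the share of gamma was 0.10 higher and that of delta 0.10 lower in KO, with p = 0.20 for each by a two-sided exact permutation test and an adjusted p of 0.60 over the 9 balances compared. With 3 libraries against 3 that test cannot go below 0.10. With coding length the gamma share was 42.3%, 40.3% and 40.7% in KO, against 40.2%, 38.5% and 36.9% in WT, groups that do not overlap, with p = 0.10 by that exact test and an adjusted p of 0.60. The shares, as geometric means, of Pik3cb (0.184 in KO, 0.187 in WT) and Pik3ca (0.138 and 0.140) were closer still.

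No difference between KO and WT was detected for any of the 9 genes. The test was limma on log2(normalized count + 1) over 13527 genes that passed the filter on low values, and all 9 passed that filter. At an adjusted p under 0.05, 0 of the 9 were called in either direction, beside 0.00739% of all tested genes (1 gene, Sirpa). By edgeR and DESeq2 on recovered reads also 0 of the 9 were called, beside 0.00751% and 0.00406% of the genes each tested. At an unadjusted p under 0.05 the count was 0 of 9 by limma, edgeR and DESeq2, beside 1.52%, 1.56% and 0.882% of tested genes. Each gene had an adjusted p of 0.9998 by limma. A limma fit that weights libraries by their quality called Pik3cg and Pik3cb higher, 2 of 9, but it called 25.9% of all tested genes (12.5% higher) and gave the most weight to the replicate 1 libraries. The groups overlapped for all 9, whereas 4.66% of tested genes had groups apart. In the mean, 7 of the 9 were above WT, beside 48.2% of tested genes, and their median log2 fold change was 0.06, beside -0.01 for all tested genes. Without WT replicate 3, 3 of the 9 were above WT and the median was -0.02. The median was 0.15 without WT replicate 2 and 0.02 without KO replicate 1.

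**Figure D2:**
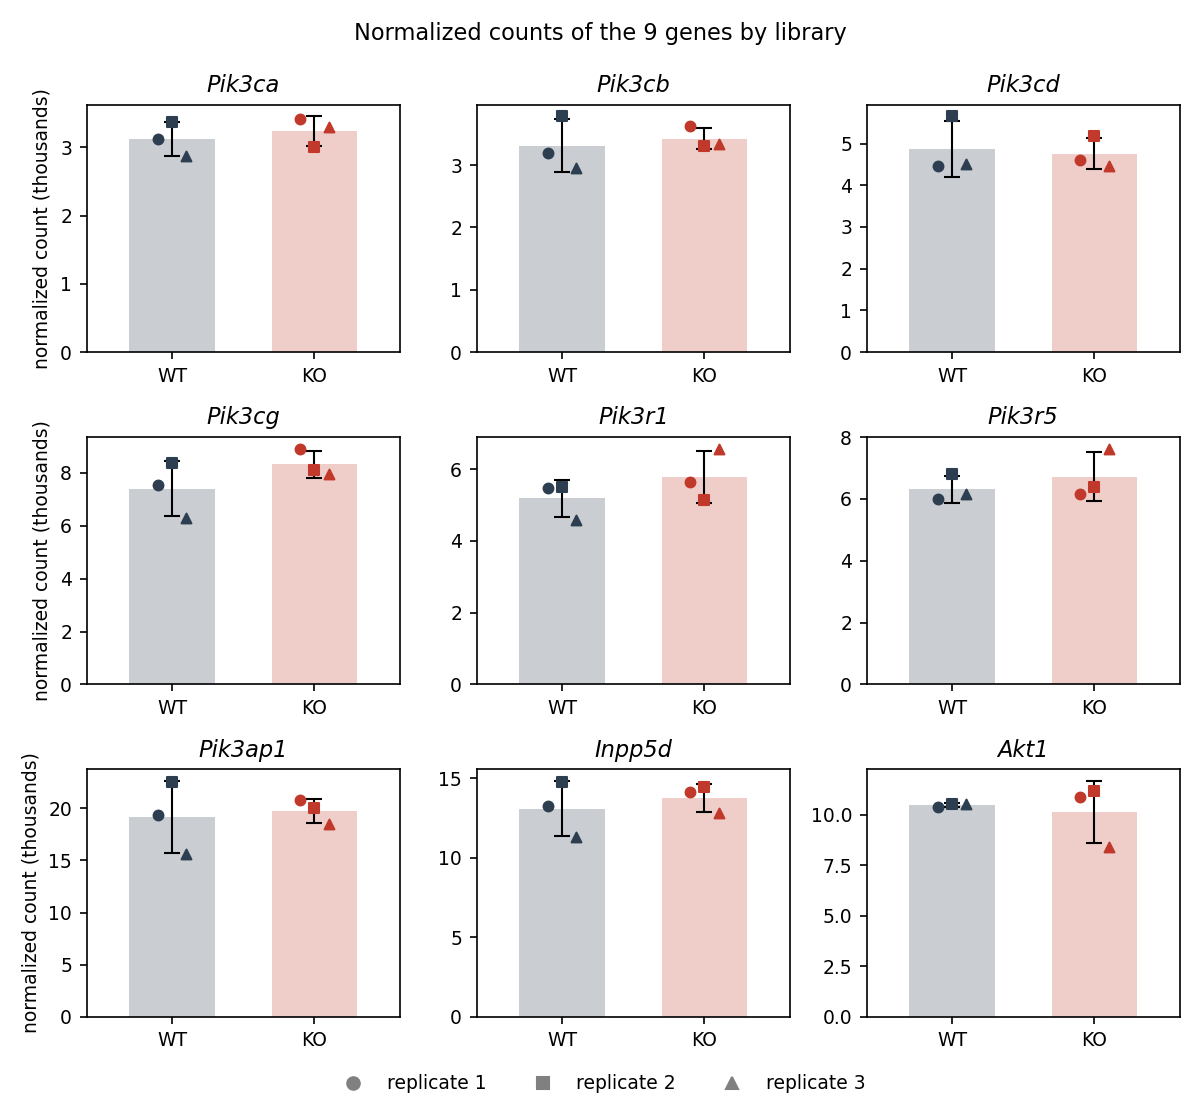
Normalized counts (vertical axes in units of 1000, from 0, a scale per gene) of the 9 genes in WT and KO; bars are means of 3 libraries, error bars the SD, and symbols the single libraries by replicate number. The points of both groups overlap for every gene, and WT replicate 3 is the lowest of 6 libraries for 6 of the genes.

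Among the catalytic subunits, Pik3cg had the largest difference of the 9 genes. Its normalized count was 8904, 8100.2 and 7952 in KO, against 7534, 8354 and 6288 in WT. WT replicate 2 lay above 2 of the KO libraries, so the groups overlapped. The log2 fold change was 0.18 (SE 0.12, 95% interval -0.09 to 0.45, limma, unadjusted p = 0.174). Without WT replicate 3 it was 0.07. The gene spans 32173473 to 32208659 of chromosome 12 (GRCm38, minus strand).

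Pik3cd, the leukocyte isoform below tyrosine kinases, stood at 4618, 5189.7 and 4474 in KO and at 4453, 5652 and 4508 in WT, in replicate order. The replicate 2 libraries were the highest of both groups, and the log2 fold change was -0.03 (SE 0.12). Pik3cb was 3619, 3312 and 3336 in KO and 3199, 3781 and 2952 in WT, a log2 fold change of 0.05 (SE 0.12). WT replicates 2 and 3 bracketed all KO values of Pik3cb. Pik3ca was 3412, 2999 and 3301 in KO and 3114, 3365 and 2869.9 in WT, a log2 fold change of 0.06 (SE 0.11), again with overlapping groups. Pik3cd lies on chromosome 4 (149649168 to 149702571, minus strand), Pik3cb on chromosome 9 (99036654 to 99140621, minus strand) and Pik3ca on chromosome 3 (32397671 to 32468486, plus strand) of GRCm38.

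The regulatory subunits did not pass the test either, and KO replicate 3 was the highest library for both. Pik3r1, which encodes the main regulatory partner of alpha, beta and delta, was 5634, 5139 and 6565 in KO, against 5461, 5506 and 4594 in WT. Its mean was 5779 ± 724 in KO and 5187 ± 514 in WT (SD, n = 3 each), with a log2 fold change of 0.15 (SE 0.12, 95% interval -0.12 to 0.43). Without KO replicate 3 this was 0.06.
Pik3r5, which encodes a partner of gamma, was 6149, 6388 and 7626 in KO and 5990.5, 6794 and 6145 in WT, with a log2 fold change of 0.09 (SE 0.11). Pik3r1 lies on chromosome 13 (101680563 to 101768217, minus strand) and Pik3r5 on chromosome 11 (68432121 to 68497849, plus strand). Of the 5 class I regulatory genes 0 rose and 0 fell, beside 0.00739% of all tested genes called. Values were above WT for 2 and below for 3, beside 48.2% of all tested genes above.

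Within the regulatory family the levels differed widely. Pik3r5 stood at 1174 ± 110 normalized counts per kilobase, Pik3r1 at 544 ± 64.3, Pik3r2 at 421 ± 33.9, Pik3r6 at 87.3 ± 10.7 and Pik3r3 at 4.04 ± 0.474 (SD, n = 6). Of the alternative partners of gamma, the Pik3r5 transcript was thus 13.5-fold above that of Pik3r6, with a range of 11.9 to 16.7 over the libraries. With the longest transcript or the coding length this was 15.3-fold and 17.9-fold. Pik3r5 also stood above Pik3cg in 6 of 6 libraries, 1.26-fold on average, but in 5 of 6 with the longest transcript and 4 of 6 with coding length. The ratio of Pik3r1 to the sum of alpha, beta and delta was 0.358 in KO and 0.326 in WT (exact permutation p = 0.60, two-sided, adjusted p = 0.90). Its size rests on the length used, since Pik3r1 has 10079 merged exon bases but 2172 coding bases. On the log2 scale KO minus WT was 0.14, and 0.13 with coding length. Pik3r1 stood 1.29-fold above Pik3r2 with merged exons, but 3.10-fold with coding length.

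Pik3ap1, the adaptor BCAP that carries binding sites for the regulatory subunits and acts below Toll-like receptors, had the highest level of the 9 genes. It stood at 3495 ± 416 normalized counts per kilobase (SD, n = 6), above 96.9% of tested genes. The counts were 20760.4, 20032 and 18534 in KO, against 19375, 22515 and 15639.6 in WT. Both the highest and the lowest value came from WT, and the log2 fold change was 0.06 (SE 0.14). Of 6 tested adaptors and inhibitors of PI3 kinase 0 rose and 0 fell, beside 0.00739% of all tested genes called. Gab1, a docking protein, was 241 ± 51.1 in KO and 208 ± 37.4 in WT, and Pik3ip1, a membrane inhibitor of the kinase, had a log2 fold change of -0.28 at a low level, 36.3 ± 8.68 in KO (SD, n = 3). Pik3ap1 spans 41272377 to 41385102 of chromosome 19 (minus strand).

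Inpp5d, the gene of SHIP1, which converts PIP3 into another signalling lipid and acts below inhibitory receptors, was abundant in both groups. Its normalized count was 14116, 14432 and 12789 in KO, against 13253, 14735 and 11286 in WT. All 3 KO values lay between the lowest and the highest WT value. The log2 fold change was 0.08 (SE 0.12, 95% interval -0.19 to 0.35, limma, unadjusted p = 0.522). Without WT replicate 3 it was -0.02. The gene spans 87620312 to 87720507 of chromosome 1 (GRCm38, plus strand).

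Inpp5d stood near Inppl1, the gene of the related phosphatase SHIP2. They stood at 1767 ± 169 and 1819 ± 242 normalized counts per kilobase, with Inpp5d above in 2 of 6 libraries; with the longest transcript or coding length it was above in 6 of 6, 1.17-fold with the longest transcript. Which of both transcripts is the more abundant therefore depends on the length taken as transcribed. The share of Inpp5d in Inpp5d and Inppl1 was 0.507 in KO and 0.480 in WT (exact permutation p = 0.20, two-sided, adjusted p = 0.60).

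Akt1, which encodes the kinase recruited by PIP3, had a higher level than the related kinase gene Akt2. It stood at 2518 ± 241 normalized counts per kilobase and Akt2 at 522 ± 14.8 (SD, n = 6). Akt1 was 4.80-fold above Akt2, and with coding length 2.77-fold, above it in 6 of 6 libraries with either length. The normalized count of Akt1 was 10863, 11166 and 8385 in KO, against 10381, 10553 and 10554 in WT. KO replicate 3 alone was low, while the WT libraries lay close together, at 10496 ± 99.6 (SD, n = 3). The log2 fold change was -0.06 (SE 0.12), and without KO replicate 3 it was 0.07. Akt1 spans 112653821 to 112674884 of chromosome 12 (minus strand).

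**Figure D3:**
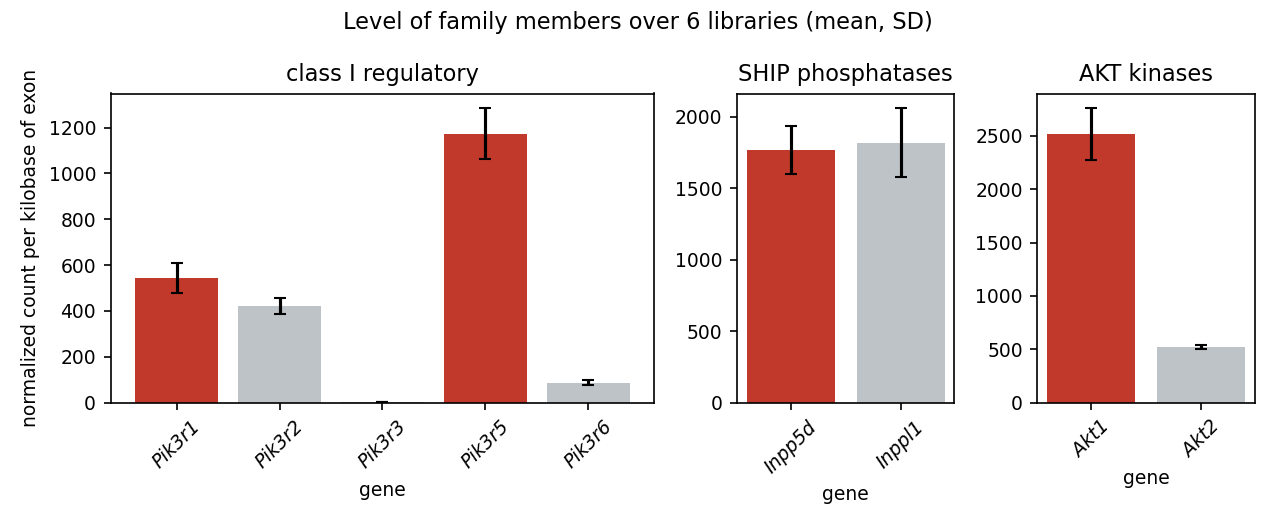
Normalized count per kilobase of merged exons (vertical axes, from 0) of regulatory subunits, SHIP phosphatases and AKT kinases; bars are means of 6 libraries, error bars the SD, and red bars belong to the 9 genes. Pik3r5 stands above Pik3r6, Inpp5d near Inppl1, and Akt1 above Akt2.

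Over all 9 genes the order by level per kilobase was Pik3ap1, Akt1, Inpp5d, Pik3r5, Pik3cg, Pik3cd, Pik3r1, Pik3cb and Pik3ca. Each stood above the next in 6 of 6 libraries. The ranges over libraries overlapped only between Pik3cg and Pik3cd and between Pik3r1 and Pik3cb. With coding length Pik3r1 moved from place 7 to place 4, and the other 8 kept their order among themselves. No exon of another annotated gene overlapped an exon of the 9.

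For each of the 9 genes, the libraries of at least 1 genotype spanned more than the difference between the genotype means. WT replicate 2 lay above the gene's own mean for all 9 genes (median deviation 0.10 on the log2 scale), and WT replicate 3 below it for 8 of 9 (median -0.18). Over all tested genes these medians were 0.00 and 0.01. The gene apart from the rest in WT replicate 3 was Akt1 (0.04). In KO replicate 3 the genes split, with Pik3r1 at 0.27 and Pik3r5 at 0.23 but Akt1 at -0.29. WT replicate 3 was also the most deeply sequenced library, and the part of depth in its low values was not tested. Within a group the coefficient of variation ran from 0.949% (Akt1 in WT) to 17.9% (Pik3ap1 in WT). Counting error was at most 1.95%, from at least 2618 reads per gene and library, and for Akt1 in WT it was 0.712% to 1.02%, about as large as the spread between those libraries.

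**Figure D4:**
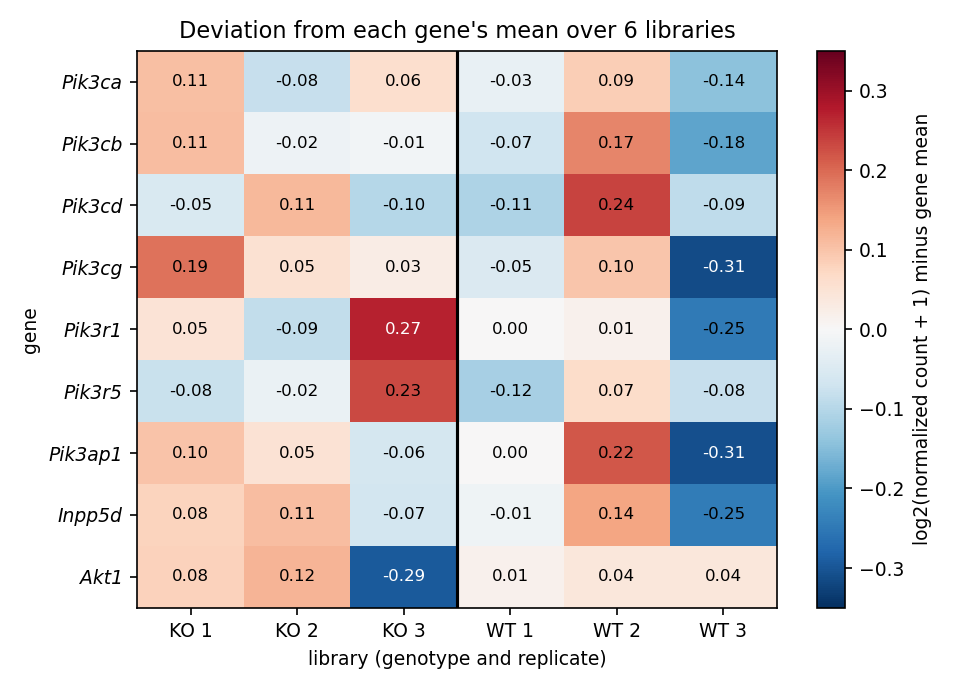
Deviation of log2(normalized count + 1) from each gene's mean over 6 libraries (colour and number), genes in rows and libraries in columns. The WT replicate 2 column is above 0 for all 9 genes, the WT replicate 3 column is below 0 for all but Akt1, and Akt1 is lowest in KO replicate 3 (-0.29).

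For 5 genes the most similar library profiles were sought among 10338 other genes averaging 100 or more normalized counts, by the root mean square distance of the 6 log2 deviations. Pik3ca was nearest to Alg10b (0.0133) and Oxr1 (0.0167), Pik3cb to Dapk1 (0.00993) and Rubcn (0.0145), and Pik3cd to Kansl3 (0.0220) and Nlrc3 (0.0232). Pik3cg was nearest to Gtf2i (0.0162) and Cpd (0.0251), and Inpp5d to Abhd2 (0.0197) and Ap5b1 (0.0214). The largest deviations of the 5 genes themselves were 0.14 to 0.31. The distances are the smallest of 10338 on 6 values each and describe these libraries only.

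The 95% intervals set the size of change these libraries leave room for. Like the p-values, they rest on library-to-library spread, possibly only technical. If so, they do not bound a genotype difference between mice or cultures. The intervals stayed inside 1.5-fold for 9 of 9 genes, beside 69.1% of tested genes, and inside 1.25-fold for 3 of 9, beside 19.0%. Over the 9 genes the bounds ran from 0.792-fold to 1.37-fold. The 9 are well expressed, with levels per kilobase above 67.8% to 96.9% of tested genes, and no test compared their intervals with those of other genes. In the authors' deposited table the 9 genes had log2 fold changes from -0.05 to 0.17 with an adjusted p of 0.9999 each.

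**Figure D5:**
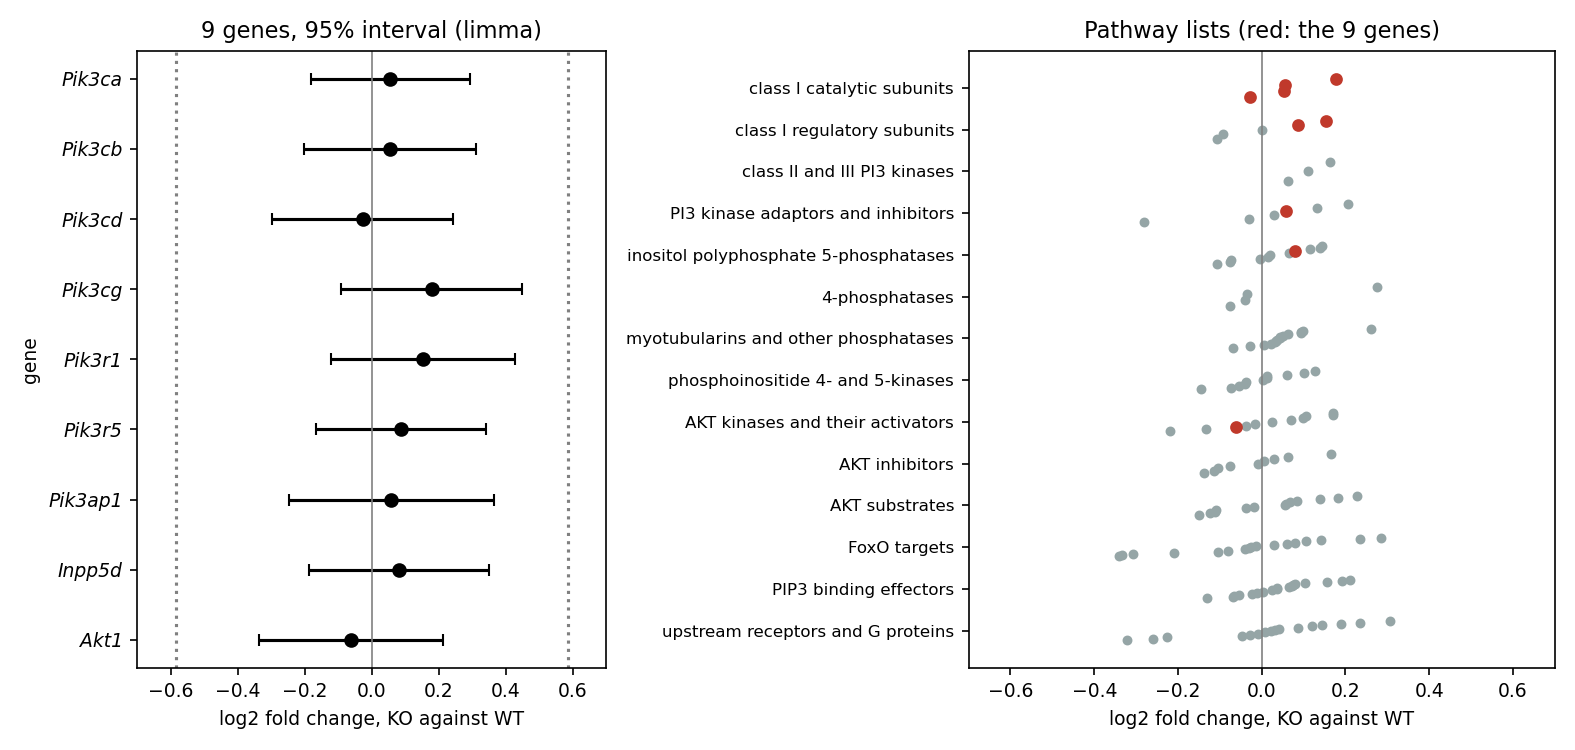
Left, log2 fold change of KO against WT (horizontal axis) for the 9 genes with 95% intervals from limma; dotted lines mark 1.5-fold. Right, the same quantity for tested genes of 14 of the 15 pathway lists (grey) with the 9 genes in red; no point passed the test, and all lie between -0.34 and 0.31.

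Other genes of the pathway, from 15 lists chosen by function, showed no call either. Of 140 tested genes in all lists, the 9 included, 0 rose, 0 fell and 140 did not pass by limma, with 2 at an unadjusted p under 0.05 by limma, 2 by edgeR and 2 by DESeq2. These are 1.43% of 140 genes by limma, 1.44% of 139 by edgeR and 1.43% of 140 by DESeq2, beside 1.52%, 1.56% and 0.882% of all genes each tested. Groups were apart for 5 of the 140, 3.57% beside 4.66%. These were Ccr2, Txnip, Mdm2, Ppp2r5a and Plekha2, the last of them named after its values were seen. In the mean 84 of the 140 (60.0%) were above WT, beside 48.2% of all tested genes, and their median log2 fold change was 0.03. How far single libraries set the direction in these lists was not tested.

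Kinases and phosphatases of other phosphoinositides had values on both sides of WT, beside 48.2% of all tested genes above WT in the mean. All 3 tested class II and III kinase genes were above WT in the mean, with Pik3c2a at 2724 ± 234 in KO and 2436 ± 246 in WT, and Pik3c3, whose product makes the lipid of endosomes and autophagosomes, at 2311 ± 166 and 2207 ± 31.8 (SD, n = 3 each). Of 11 tested 5-phosphatases 7 were above and 4 below WT, with Synj2 at 2055 ± 88.8 and 1863 ± 185. Inpp4b, which acts on the product of SHIP1, was 1352 ± 163 and 1119 ± 148 (log2 fold change 0.27, limma, unadjusted p = 0.0739), the largest difference of the 4 tested 4-phosphatases.
Of 15 tested myotubularins and related phosphatases 13 were above WT (median 0.04), beside 48.2% of all tested genes. Sbf2 was 5848 ± 409 and 4950 ± 1042, with WT replicate 3 lowest at 3804. Mtmr6 had the highest level of that list, at 2207 normalized counts per kilobase. Of 11 tested 4- and 5-kinases 6 were above and 5 below WT, and Pip4k2a was 10347 ± 417 and 10632 ± 488. None of these genes passed the test.

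Downstream genes were likewise without a call, beside 0.00739% of all tested genes called and 48.2% above WT in the mean. Of 11 tested AKT kinases and activators 6 were above WT, with Mtor at 1646 ± 71.7 in KO and 1483 ± 313 in WT and Deptor, an inhibitor of mTOR complexes, at 1213 ± 137 and 1076 ± 97.9 (SD, n = 3 each). Of 9 tested AKT inhibitors 4 were above WT. Ppp2r5a, a subunit of the phosphatase PP2A, was 3869 ± 190 and 4183 ± 133 (log2 fold change -0.11) with groups apart. Of 13 tested AKT substrates 7 were above WT, and Mdm2 was 4068 ± 116 and 4517 ± 274 (-0.15), also with groups apart. Of 18 tested PIP3-binding effectors 12 were above WT, among them Vav3, an exchange factor for small GTPases, at 2263 ± 353 and 1944 ± 150. Plcg2, the phospholipase with the highest level of that list, was 10047 ± 23.1 and 9548 ± 1023.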

How the data were processed

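The authors' table gives, per the file headers, 6 library columns holding a signal, namely gene counts normalized by 1 size factor per library, their mean, log2 fold changes and standard errors, a test statistic (a score without fixed range) and p-values. Per the submitters' processing notes, CASAVA 1.4, STAR 2.5.1b, featureCounts 1.6.0, DESeq2 1.22.2 and GRCm38 were used; the series' design text in the labels names TopHat 2.0.10 instead. No source used here gives the strand setting or annotation release.

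Groups and replicate numbers came from sample titles. Values were whole multiples of 1 step per library (100% of positive values within 0.001 reads), so whole reads were recovered for edgeR 4.0.16 and DESeq2 1.42.0. edgeR's quasi-likelihood test and DESeq2 each called 1 gene. The main test was limma 3.58.1 (R 4.3.3) with an intensity trend on log2(value + 1), a scale that understates changes of low genes, two-sided, for genes reaching 10 normalized counts in 3 or more libraries, with Benjamini-Hochberg adjustment and a threshold of 0.05. It was run on simulated counts, and the share of small changes that it called there is not reported here. Gene lengths came from GENCODE M21 (GRCm38), in which 54165 of the 54232 IDs were found. Replicates differed beyond sampling noise, since their chi-square was 13.1 or more times its degrees of freedom.

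Named genes were the 9 members, Sirpa, from each list the 2 non-members with the smallest p and the 1 with the highest level per kilobase, and the nearest library profiles. Some of these, and 2 of the 9 balances within families, are not reported here; p-values stay adjusted over all 9. Members, lists and tests were chosen with earlier results of these data known. Alternatives were other pseudocounts, filters, scalings, variance models, tests, lengths and left-out libraries.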

Additional observations from a re-analysis of the deposited data

How the results depend on the processing

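No member was called by limma with pseudocounts of 0.1 or 10, no filter or a minimum of 50, TMM or quantile scaling, no trend, the replicate block, edgeR, DESeq2, or without any 1 library or without replicate 3 of both groups, and over all genes 0 were called higher and 1 lower in each. Array weights called 1685 genes higher and 1813 lower, 26 pathway genes higher and 8 lower, and 2 members higher, Pik3cg (log2 fold change 0.23, adjusted p = 0.0112) and Pik3cb (0.16, adjusted p = 0.0436), beside 12.5% of tested genes called higher. That fit gave the replicate 1 libraries weights of 6.61 and 7.10 and the other 4 weights of 0.258 to 0.543, its estimation stopped before reaching its tolerance, and it rests mainly on 1 library a group. Log2 deviations, here from each gene's mean within its genotype group, correlated at 0.01, 0.31 and 0.13 between same-numbered KO and WT libraries. Those of differently numbered libraries correlated at -0.26 to 0.15. Whether a replicate number stands for a shared batch or pairing was not tested. With the replicate block 0 genes were higher and 1 lower.

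Signs of small differences turned with single libraries, and 3 of 9 members were above WT without WT replicate 3, against 7 with all libraries. Pik3cg kept its sign throughout, from 0.07 to 0.27. Leaving out 1 library, the log2 fold change ran from -0.00202 to 0.113 for Pik3ca, -0.0243 to 0.154 for Pik3cb, -0.0910 to 0.0844 for Pik3cd, -0.00765 to 0.148 for Pik3r5, -0.0805 to 0.182 for Pik3ap1, -0.0223 to 0.170 for Inpp5d and -0.137 to 0.0695 for Akt1. The sign turned without WT replicate 3 for Pik3ca, Pik3cb, Pik3ap1 and Inpp5d, without KO replicate 3 for Pik3cd, Pik3r5 and Akt1, and without WT replicate 2 for Pik3cd. Without replicate 3 of both groups it was -0.0172 for Pik3ca, -0.00643 for Pik3cb, -0.0272 for Pik3r1, -0.0256 for Pik3r5, -0.0345 for Pik3ap1 and 0.0735 for Akt1. With array weights it was 0.0449 for Pik3cd and 0.0531 for Akt1. Leaving out a library, KO minus WT on the log2 scale ran from -0.0619 to 0.0346 for the share of Pik3ca, -0.0365 to 0.00215 for Pik3cb, -0.17 to -0.06 for Pik3cd, 0.07 to 0.14 for Pik3cg and 0.06 to 0.10 for Inpp5d, and from 0.02 to 0.23 for the ratio of Pik3r1 to its partners and -0.22 to 0.0191 for Pik3r5 to Pik3cg. The isoform ratios then ran, on the log2 scale, from 0.40 to 0.43 (Pik3cb to Pik3ca), 1.10 to 1.17 (Pik3cd to Pik3ca), 1.38 to 1.44 (Pik3cg to Pik3ca), 0.69 to 0.75 (Pik3cd to Pik3cb), 0.97 to 1.02 (Pik3cg to Pik3cb) and 0.23 to 0.32 (Pik3cg to Pik3cd); 5 libraries cannot give an exact p under 0.0625, so none passed. The cause of each change of sign was not tested.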

Other observations

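FoxO transcription factors are kept out of the nucleus by AKT, and their target genes were not described above. Of 17 tested FoxO targets 0 rose, 0 fell and 17 did not pass by limma, with 7 above and 10 below WT (median log2 fold change -0.03). Over all tested genes 0.00739% were called and 48.2% were above WT. Txnip, which restrains glucose uptake, was 30251, 28254 and 25973 normalized counts in KO, against 22142, 25033 and 22092 in WT, so its groups did not overlap (log2 fold change 0.29, SE 0.11, limma, unadjusted p = 0.0280, adjusted p = 0.9998). Klf4, a transcription factor, was 1121 ± 327 in KO and 1395 ± 265 in WT (SD, n = 3 each), with groups that overlap.

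Of 16 tested receptors and G proteins upstream of class I PI3 kinases 10 were above and 6 below WT. For all tested genes the share above was 48.2%. None of the 16 passed the test, beside 0.00739% of all tested genes. Rras, a small GTPase, had 955 ± 80.7 normalized counts in KO, against 1149 ± 167 for WT (log2 difference -0.26, limma, unadjusted p = 0.0836). Ccr2, a chemokine receptor of monocytes, had a log2 fold change of -0.32 with groups apart. Csf1r, the receptor for the growth factor of the culture, was 101653 ± 13166 and 100154 ± 13761 (SD, n = 3 each).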
